A study of Mus musculus with 2 samples.

Results

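Neutrophils found among mCherry-sorted cells of mouse tumours are described here. They were chosen from 2 droplet single-cell libraries by a rule on each cell barcode. Barcodes with fewer than 200 genes or more than 10% mitochondrial transcripts were left out. A barcode counted as a neutrophil when it held under 5 transcripts of the mCherry construct and at most 1 of Csf1r, the macrophage growth factor receptor gene, and when S100a8 plus S100a9 made up at least 1% of its transcripts. Transcripts were counted as unique molecular identifiers (UMIs). The rule found 116 of 7558 barcodes in the library from young mice, aged 4 weeks, and 189 of 6279 in the library from adult mice, aged 24 weeks, or 305 of 13837 in all. Both libraries came from tumour tissue pooled over mice, sorted for mCherry and labelled d7. None of the sources used here gives the mouse strain, the tumour, the cells meant to carry mCherry or the event from which d7 was counted. The study's title places the comparison in work on how tumour antigen is presented to CD8 T cells in young hosts. Each age is 1 library, so no test was possible. Intervals therefore describe counting error alone, and an effect of age cannot be told apart from one of the pool, its sort, its library or its sequencing.

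Neutrophils are short-lived granulocytes made in the bone marrow. They fill successive kinds of granule as they mature, first primary, then specific, then gelatinase granules, and the messages for the early granule proteins are largely gone from a cell that leaves the marrow. They follow chemokines through Cxcr2, depend on granulocyte colony-stimulating factor through Csf3r, and in tumours are known as a source of interleukin 1 and of chemokines that draw further leukocytes.

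The neutrophil barcodes were shallow. Their median was 2130.5 UMIs and 727 genes in the young and 1900 UMIs and 629 genes in the adult library, with ranges of 542 to 9192 and 627 to 11722 UMIs. The other kept barcodes with under 5 mCherry UMIs, called the others below, numbered 6508 and 5082 with medians of 9716 and 9484 UMIs. Summed, the neutrophils held 264666 young and 391952 adult UMIs. Levels are given in CPM, the usual scale of counts relative to that sum, so 1 UMI was worth under 4 CPM, and a gene with 0 UMIs may have had up to 3, that is up to 11.3 young or 7.65 adult CPM. Although the cells were sorted for mCherry, 20 young and 19 adult neutrophil barcodes (17.2% and 10.1%) carried any mCherry UMI, against 17.9% and 17.5% of the deeper others. The libraries shared 111 barcode sequences, none of them between their neutrophils.

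S100a8 and S100a9, which encode the calprotectin subunits, chose the barcodes and are given as a description. Together they made up a median of 4.30% of a young neutrophil barcode's UMIs (range 1.01 to 20.6%) and 6.07% of an adult one's (1.01 to 36.4%). The 5 barcodes nearest to the limit lay at 1.01 to 1.10% inside and 0.783 to 0.938% outside it in the young library, and at 1.01 to 1.08% and 0.812 to 0.969% in the adult library. The limit cut through a continuous range. The 17 young and 19 adult barcodes at 0.5 to 1% had 844 and 1225 CPM of Hdc, the histamine-forming enzyme, and those at 1 to 2% had 1339 and 1611 CPM. Barcodes under 0.1% with the same Csf1r limit had 12.1 and 23.2 CPM. A further 6 barcodes in each library passed the S100 limit but held more than 1 Csf1r UMI.

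**Figure D1:**
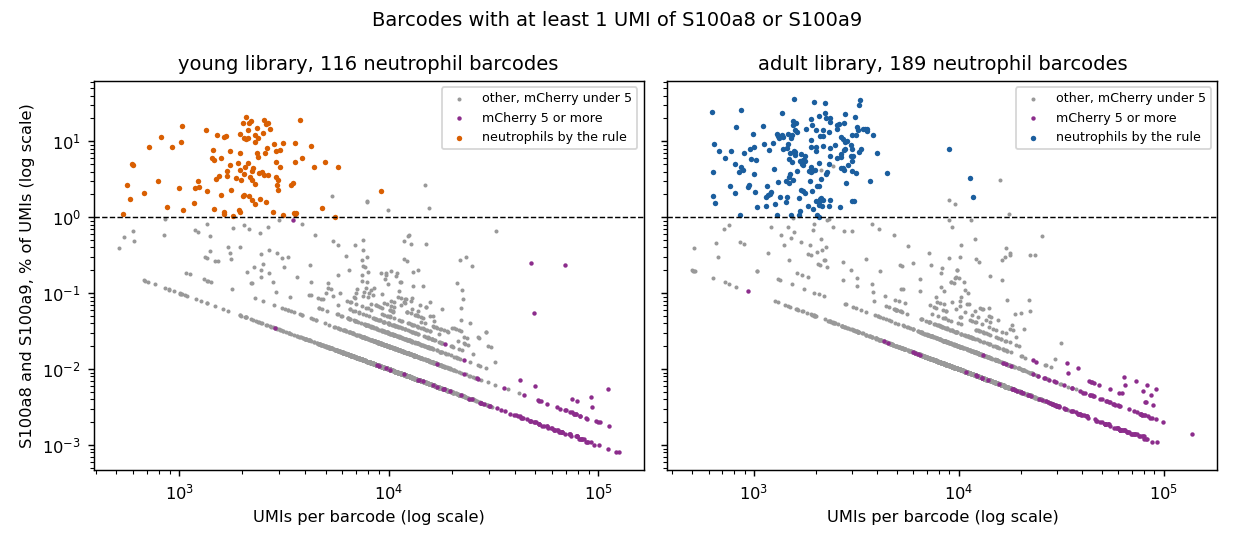
Share of S100a8 and S100a9 in each barcode's UMIs (vertical, log scale) against its UMIs (horizontal, log scale) for kept barcodes with at least 1 UMI of either gene; each point is a barcode, coloured by class, and the dashed line is the 1% limit. Neutrophil barcodes lie above the line, mostly below the depth of the others, whose lowest bands are barcodes with 1, 2 or 3 such UMIs.

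The label was checked against the neutrophil markers G0s2, Retnlg, Hdc, Asprv1 and Lcn2, which were high in the chosen barcodes and at 16 CPM or less in the others. Mmp9, Cxcr2 and Csf3r, also on the marker list, are given below, and Csf3r was above 16 CPM in the others. Ly6g, the standard surface marker, was not on the list and was seen in few barcodes (Other observations). G0s2, an inhibitor of lipolysis, had 1882 CPM in the young and 4865 CPM in the adult library, against 5.02 and 14.4 CPM in the others. Retnlg, a resistin-like secreted protein, had 654 and 1403 CPM against 0.392 and 0.709 CPM. Hdc had 1526 and 1587 CPM against 11.1 and 15.7 CPM, Asprv1, a retroviral-like protease, 612 and 380.1 CPM against 1.78 and 1.76 CPM, and Lcn2, a siderophore-binding granule protein, 412 and 551 CPM against 1.46 and 3.39 CPM. After each barcode was thinned to 1000 UMIs, Hdc was seen in 67.3% and 66.1% of young and adult neutrophils and 1.34% and 1.67% of the others, and Retnlg in 17.3% and 28.5% and 0.0473% and 0.0797%. Thinning left out 12 young and 24 adult neutrophils that were shallower. Unthinned, Hdc was seen in 77.6% and 79.9% of neutrophils and 7.27% and 8.64% of the others. Hdc was thus seen in most neutrophil barcodes and Retnlg in a minority.

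Defining genes of other granulocytes and of lymphocytes were at or near 0. Of 5 eosinophil markers only Ccr3 had a UMI, 1 in the adult library, and Siglecf, an eosinophil lectin also known on some tumour neutrophils, had none. The mast cell and basophil genes Cpa3, Mcpt8, Ms4a2, Fcer1a and Gata2 all had 0 UMIs, while Hdc, which those cells also use, was high. The 4 B cell markers had 0 UMIs, and the 6 T and NK cell markers summed to 1 young and 4 adult UMIs. Monocyte markers were present at a lower level than in the others: the 6 genes summed to 2327 and 1421 CPM against 5514 and 5303 CPM, led by Plac8 and Ly6c2, and 8 young and 7 adult barcodes held more than 0.5% of their UMIs in them. Of 7 dendritic cell markers, H2-Ab1, a major histocompatibility complex class II gene, gave 525 and 722 CPM against 3048 and 4283 CPM, and Zbtb46, Clec9a and Cd209a were at 0.

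Macrophage transcripts were present in neutrophil barcodes at a low level, and every later value has to be read against it. The complement genes C1qa, C1qb and C1qc, which macrophages make, summed to 309.8 CPM in young and 526 CPM in adult neutrophils. In the others they summed to 5723 and 4834 CPM. The ratio, 5.41% (4.31 to 6.72) in the young and 10.9% (9.44 to 12.5) in the adult library, was taken as the share of neutrophil UMIs that free RNA or partner cells from the others could supply. For any gene, that share of its level in the others is called its free-RNA level below. The estimate was larger in the adult library, where 1 barcode held 0.906% C1q UMIs. Without the 7 young and 12 adult neutrophil barcodes with most UMIs it was 5.73% and 6.97%. Single probe genes ranged from 1.54% (Ms4a7, young, 1 UMI) to 15.4% (Adgre1, adult, 5 UMIs).

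Among 2535 genes at 50 CPM or more in neutrophils or others in both libraries, 369 (14.6%) were at least 2-fold higher in neutrophils in both libraries and 931 (36.7%) at least 2-fold lower. The genes of the rule were left out. Since the barcodes were chosen by their own transcripts, these counts describe the class and test nothing. The 15 genes with the largest ratio, taking the smaller of the 2 libraries, were Retnlg, Stfa2l1, Gm5483, 4732465J04Rik, G0s2, Gm5416, Chil1, Mrgpra2b, Asprv1, Lcn2, Stfa1, Il1f9, Gm20406, Wfdc21 and Hdc. Retnlg was 1667-fold and 1979.6-fold higher. Stfa2l1, a stefin A cysteine protease inhibitor, was 703-fold and 472-fold higher, and Mrgpra2b, a G protein-coupled receptor, 1159-fold and 235-fold. Chil1, a chitinase-like protein, had 90.7 and 168 CPM against 0.317 and 0.632 CPM, and Il1f9, the cytokine interleukin 36 gamma, 673 and 531 CPM against 3.91 and 3.66 CPM. The set holds 2 non-coding loci. 4732465J04Rik, a long intergenic RNA at chr10:95746077-95797236 (mm10), had 90.7 and 74.0 CPM. Gm20406 at chr8:121806415-121807369 is annotated as antisense, had 227 and 286 CPM, and is uncertain because the use of strand in counting is not given in the sources used here.

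Genes of the earliest granules were nearly absent. The 6 primary granule genes, which promyelocytes use, gave 1 young and 2 adult UMIs in all: Mpo (myeloperoxidase), Elane (neutrophil elastase), Ctsg and Ms4a3 had 0 UMIs in both libraries. Mki67, a proliferation gene, also had 0, and Top2a, Stmn1, Birc5, Cdk1 and Ube2c had 1 to 4 UMIs per library. With these totals, levels up to the 3-UMI limit were not detectable. Fcnb, a ficolin of marrow precursors, had 1 young UMI.

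Specific granule genes were split. Lcn2 and Mmp8, neutrophil collagenase, were high, Mmp8 with 83.1 and 76.5 CPM against 8.14 and 6.63 CPM. Ltf (lactoferrin) had 11 and 9 UMIs in 5 of 116 young and 7 of 189 adult barcodes. Camp, a cathelicidin, had 2 young UMIs and no adult UMI, and Ngp, its neutrophilic granule relative, had 32 and 3 UMIs in 4 and 3 barcodes. Olfm4 appeared in 3 of 116 young and 9 of 189 adult barcodes. Of the 10 listed genes, 4 reached the level of the comparison, Lcn2 and Mmp8 as higher in neutrophils and B4galt1, a galactosyltransferase, as lower. Of all genes compared, 14.6% were called higher and 36.7% lower, and a list of 4 is too short to set against those shares. The 1 lower gene is therefore not read as a feature of the list. Chil3, a chitinase-like protein that macrophages also make, had 102 and 86.7 CPM against 121 and 361 CPM.

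Gelatinase granule and secretory genes, made late in maturation, were high. Of 12 listed genes, 11 reached the level needed and 8 were at least 2-fold above the others in both libraries, against 14.6% of all genes compared. Mmp9, gelatinase B, had 370.3 CPM in the young and 235 CPM in the adult library against 1.19 and 13.7 CPM. Pglyrp1, a peptidoglycan-binding protein, had 117 and 189 CPM, Hp (haptoglobin) 238 and 212 CPM, Wfdc21, a secreted inhibitor-like protein, 136 and 242 CPM, and Arg2, the mitochondrial arginase, 385 and 327 CPM. Mcemp1 and Ifitm6 were 3.72-fold and 3.63-fold and 5.44-fold and 6.16-fold higher. Adam8, Itgam and Slc11a1 were below the level of the others, 178 and 133 CPM against 258 and 286 CPM for Itgam, the integrin of myeloid cells. The list held a median of 0.296% of a young barcode's UMIs (0 to 2.03%) and 0.251% of an adult one's (0 to 3.91%).

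Among 12 transcription factors of maturation, 8 reached the level and 4 were at least 2-fold higher, against 14.6% of all genes. Cebpb and Cebpd, which act in late and emergency granulopoiesis, were 2.43-fold and 3.03-fold and 9.76-fold and 7.2-fold above the others. Mxd1, a Myc antagonist of maturing granulocytes, had 1356 and 1599.7 CPM against 199 and 171 CPM, and Klf2 412 and 1311 CPM against 45.7 and 52.7 CPM. Cebpa, a factor of progenitors, had 7.56 and 12.8 CPM against 54.6 and 59.0 CPM, and Gfi1, another, had 0 UMIs. Cebpe, needed for specific granules, had 10 and 6 UMIs.

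**Figure D2:**
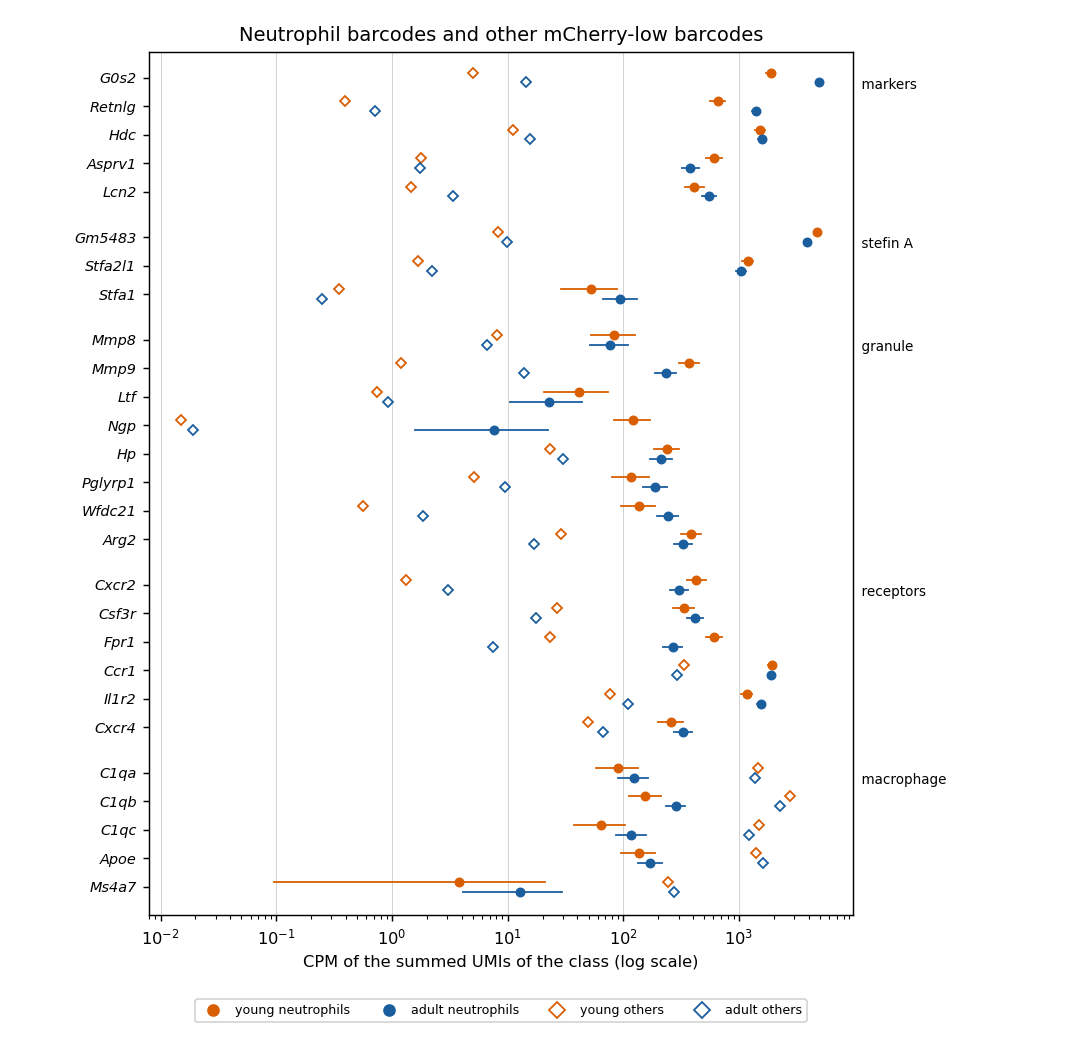
Levels (CPM, log scale) of marker, stefin A, granule, receptor and macrophage genes, 1 gene a row, in neutrophils (filled circles with 95% exact Poisson intervals) and in the others (open diamonds) of the young (orange) and adult (blue) library. Neutrophil genes lie to the right of the diamonds by 1 or more powers of 10 for most rows, and the 5 macrophage genes lie to the left; Ms4a7 was 3.78 and 12.8 CPM in neutrophils.

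The stefin A genes, cytosolic inhibitors of cathepsins clustered on mouse chromosome 16, stood out among the leading genes. Gm5483 (chr16:36184212-36188111) had 4685 CPM in the young and 3881 CPM in the adult library, in 63 of 116 young and 88 of 189 adult barcodes, against 8.32 and 9.79 CPM in the others. Stfa2l1 (chr16:36156811-36161953) had 1186 and 1041 CPM, and Gm5416 and Stfa1 had lower levels: 106 and 112 CPM for Gm5416 and, for Stfa1 (chr16:36276951-36285373), 52.9 and 94.4 CPM. Csta1, a further member, had 0 UMIs in neutrophils and others. Within the class the family was uneven: the 10% of barcodes with most Stfa2l1 held 70.4% of its young and 62.5% of its adult UMIs. These genes are near-identical copies, and the counting could have split or dropped reads between them, so each single value is uncertain. Cstb, stefin B, which most cells use, was only 2.16-fold and 1.94-fold higher.

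Of 11 chemotactic and growth factor receptor genes, 8 were at least 2-fold above the others in both libraries, against 14.6% of all genes compared. Cxcr2 had 427 and 304 CPM against 1.31 and 3.07 CPM, and Csf3r 332 and 418 CPM against 26.4 and 17.7 CPM. Ccr1, a receptor for Ccl3 and its relatives, was the most abundant with 1927 and 1896 CPM against 333 and 289 CPM. The formyl peptide receptors Fpr1 and Fpr2 had 605 and 268 CPM and 744 and 416 CPM, and C5ar1, the receptor of complement C5a, 1028 and 865 CPM. Cxcr4, the marrow-retention receptor that returns on aged neutrophils, had 257 and 327 CPM, 5.16-fold and 4.88-fold above the others. The other 3, Csf2rb, Csf2rb2 and Ltb4r1, the leukotriene B4 receptor, were at most 1.71 times the others.

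Of 14 innate sensing receptor genes, 12 reached the level and 7 were above the others by 2-fold in both libraries, again against 14.6%. Cd14, the lipopolysaccharide co-receptor, had 4953 and 4164 CPM against 1266 and 1015 CPM. The C-type lectins Clec4d and Clec4e had 3491 and 2738 CPM and 2293 and 2386 CPM, and Trem1, an amplifier of inflammatory signals, 914 and 969.5 CPM. The activating Fc receptors Fcgr3 and Fcgr4 were close to the others, 0.831 and 1.10 times for Fcgr3, and the inhibitory Fcgr2b was lower, 139.8 and 184 CPM against 492 and 678 CPM. Among interleukin 1 and tumour necrosis factor receptors, the decoy Il1r2 had 1164 and 1556 CPM against 76.4 and 109.8 CPM, the signalling receptor Il1r1 had 0 UMIs, and Tnfrsf23, a decoy receptor of the TRAIL family, had 340.1 and 403 CPM against 19.2 and 18.1 CPM.

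Chemokines took a large share of neutrophil transcripts. Cxcl2, a Cxcr2 ligand that draws neutrophils, was found in all 305 barcodes at 30695 CPM in the young and 27378 CPM in the adult library, against 4634 and 3951 CPM in the others. It made up between 0.0361 and 18.9% of a young barcode's UMIs, with a median of 1.90%, and 0.0628 to 12.2% of an adult one's, with a median of 1.69%. Ccl4 and Ccl3, which draw monocytes and other leukocytes, had 11471 and 10838 CPM and 10647 and 6103 CPM against 1340.3 and 1011 CPM and 439 and 429 CPM. Cxcl3, a relative of Cxcl2, had 2717 and 4110.2 CPM, and Ccl6 1870.3 and 3796 CPM. These 5 genes stood far above their free-RNA level, at 122 and 63.7 times it for Cxcl2 and 58.0 and 60.2 times for Ccl6. Cxcl1, another Cxcr2 ligand, was lower than in the others, 49.1 and 38.3 CPM against 154 and 127 CPM, and Cxcl5 had 0 UMIs.

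Of the other chemokines, 6 lay near their free-RNA level in the adult library: Cxcl9, Cxcl16, Ccl2, Ccl5, Ccl7 and Ccl24 were at or under 2 times it, from 0.633 (Ccl24) to 1.51 (Ccl2). In the young library the same genes were at 1.53 (Ccl24, 1 UMI) to 4.47 times (Ccl5). Cxcl10, an interferon-induced ligand of Cxcr3, was 44.6 and 9.70 times its free-RNA level, and its young UMIs came from 45 of 116 barcodes, of which 12 held 82.6%.

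**Figure D3:**
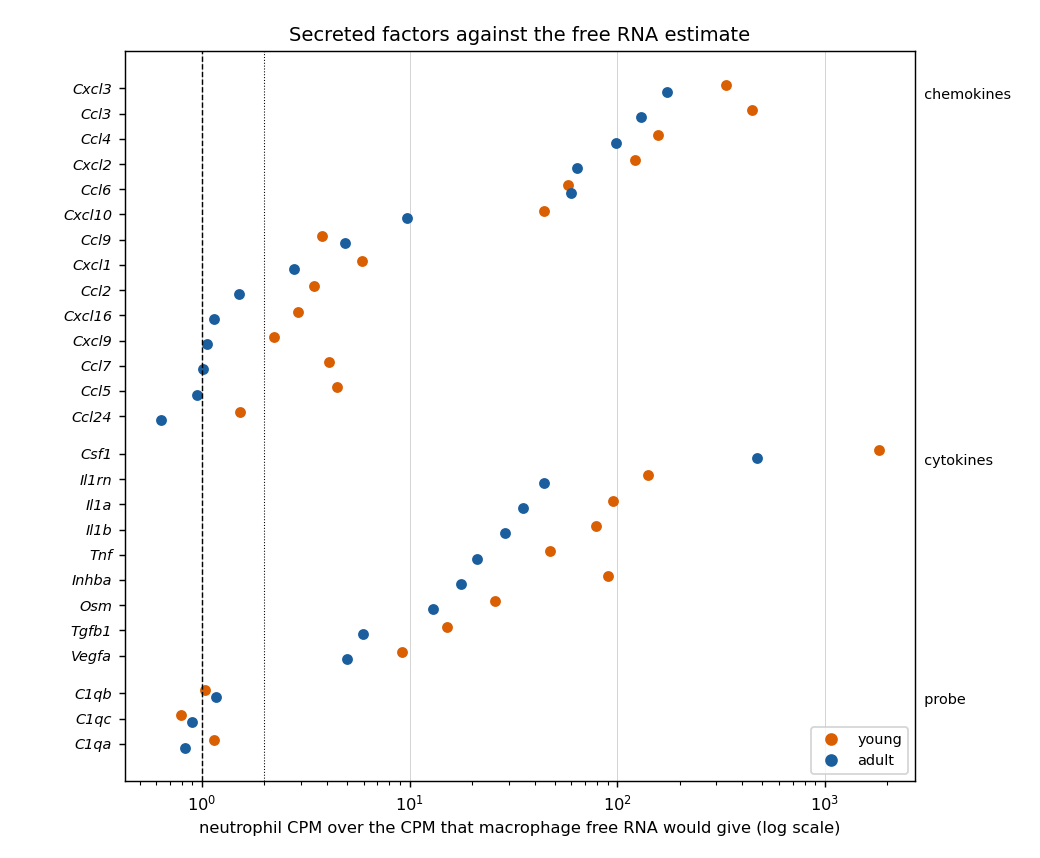
Neutrophil level of chemokines, cytokines and the 3 C1q probe genes as a multiple of the free-RNA level (horizontal, log scale), for the young (orange) and adult (blue) library; the dashed line is 1 and the dotted line 2. Cxcl3, Ccl3, Ccl4, Cxcl2 and Ccl6 lie at 58 times or more, while 6 chemokines of the adult library lie at or left of the dotted line, beside the probe.

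Cytokine genes followed the inflammatory chemokines. Il1b had 14154 CPM in the young and 10121 CPM in the adult library against 3293 and 3227 CPM, and its natural antagonist Il1rn 6763 and 4128 CPM against 887 and 850.3 CPM. Il1a and Tnf had 1266 and 1031 CPM and 839 and 592 CPM, and Csf1, the macrophage growth factor, 344 and 429 CPM against 3.47 and 8.37 CPM, so that the class held the ligand and, by the rule, little of the receptor. Osm was 1.40-fold and 1.40-fold higher. Vegfa, the vascular growth factor, had 125 and 119.9 CPM against 251 and 222 CPM, and Tgfb1 242 and 286 CPM against 295 and 440.1 CPM. Il6 and Il10 had 0 young UMIs and 1 and 3 adult UMIs.

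Genes described in tumour neutrophils were mixed. Cd274, the checkpoint ligand PD-L1, had 1326 and 1209 CPM against 469 and 357 CPM. Hilpda, a hypoxia-induced lipid droplet protein, had 3809 and 3355 CPM against 657 and 563 CPM. Spp1 (osteopontin) had 4504 and 2814 CPM against 410.0 and 962 CPM, with UMIs in 59 of 116 young and 86 of 189 adult barcodes. Of 10 members that reached the level, 4 were at least 2-fold higher in both libraries (14.6% of all genes), and Ptgs2, Ndrg1 and Vegfa were not. None of the 11 glycolysis genes that reached the level in both libraries was 2-fold higher in both. In a list this short, that is close to the 14.6% of all genes compared. Slc2a3, a glucose transporter of leukocytes, reached 71.8 and 45.9 CPM against 1.22 and 1.84 CPM, but missed the limit of 50 CPM in the adult library. The abundant Gapdh and Pkm were at 0.561 and 0.793 times and 0.912 and 0.939 times the others.

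Genes of the oxidase that makes superoxide in phagosomes were not higher than in the others. Its membrane subunits Cybb and Cyba were lower than in the others, 106 and 66.3 CPM against 424 and 354 CPM and 994 and 819 CPM against 2788 and 2474 CPM, and the cytosolic subunits Ncf1 and Ncf4 and the GTPase Rac2 lay between 0.881 and 1.10 times their level. Among survival genes, the death gene Bcl2l11 was 4.44-fold and 4.85-fold and Txnip 4.70-fold and 5.29-fold higher, whereas Mcl1, on which neutrophils depend, had 911 and 1115 CPM against 771 and 728 CPM. Alox5ap, the partner of 5-lipoxygenase, had 279.6 and 367 CPM against 852 and 724 CPM, and Alox5 itself 4 and 5 UMIs.

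Interferon-induced and immediate early genes were often higher in neutrophils than in the others. Of 16 type I interferon response genes that reached the level, 9 were at least 2-fold above the others in both libraries, of 11 interferon gamma genes 5, and of 17 immediate early genes 8, against 14.6% of all genes compared. Isg15 had 6072 and 3937 CPM against 1333 and 924 CPM, and Isg20, an antiviral exonuclease, was 13.9-fold and 11.4-fold higher. Slfn4, a schlafen protein of myeloid cells, had 552 and 625 CPM against 99.7 and 60.4 CPM. Egr1, a factor induced by growth signals, was 22.9-fold and 19.2-fold higher, and Nfkbia, the inhibitor of NF-kB, had 7583 and 7026 CPM against 2697 and 2399.8 CPM. Members of these lists were not uniform: Irf7 and Ifitm3 were at 0.754 and 0.757 times the young others, and Hspa8 at 0.259 times. None of the 6 tested cytosolic genes beside S100a8 and S100a9 was 2-fold higher, close to the 14.6% of all genes in so short a list. S100a11 was at 1.66-fold and 1.63-fold and S100a6 at 0.997 and 0.784 times. Of 10 survival and death genes, 3 were at least 2-fold higher, against the same 14.6%. The anti-death genes Bcl2a1b and Pim1 had 1485 and 1424 CPM and 1406 and 1814 CPM against 872 and 1190.0 CPM and 715 and 753 CPM. Bcl2a1 genes are near-identical copies, so their single values are uncertain.

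Neutrophil barcodes differed among themselves in Retnlg and in chemokines. Retnlg was seen in 25 young and 61 adult barcodes, whose median depth, 2205 and 2006 UMIs, was close to that of the barcodes without it, 2126 and 1846. Barcodes with Retnlg had more Csf3r, 619 and 529.8 CPM against 255 and 361 without it. Pglyrp1 was at 248 and 313 against 81.7 and 124 CPM, and Wfdc17, a secreted inhibitor-like protein, at 2159 and 5536 against 701 and 2458. Barcodes without Retnlg had more Ccl3, 11660 and 6684 against 6918 and 4984 CPM, and more Inhba, the activin A subunit, 1047 and 465 against 336 and 239. All Ngp UMIs lay in barcodes without Retnlg, but in only 4 young and 3 adult ones. As 91 of 116 young and 128 of 189 adult barcodes lacked Retnlg, these few show no contrast. Lcn2 and Stfa2l1 went opposite ways in the 2 libraries. Lcn2 had 372 and 955 CPM with Retnlg and 423 and 341 without, and Stfa2l1 3344 and 843 with and 601 and 1144 without. This split was chosen after its values were seen. Cxcl2 was lower with Retnlg in both libraries, 26664 and 26958 CPM against 31790 and 27597 without, though close in the adult library. Il1b went opposite ways, with 14915 and 8946 CPM with Retnlg and 13947 and 10732 without.

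Across barcodes, the share of chemokines and that of immediate early genes had a Spearman correlation of 0.49 in the young and 0.29 in the adult library. For chemokines and type I interferon genes it was -0.24 in the young and -0.08 in the adult library. The points share their library and depth and are cells of 1 pool each, so these values (n = 116 and 189 barcodes, S100a8 and S100a9 left out of the totals) are descriptions. The 15 chemokines held a median of 3.62% of a young and 3.57% of an adult barcode's UMIs, and up to 30.7% and 26.1%.

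**Figure D4:**
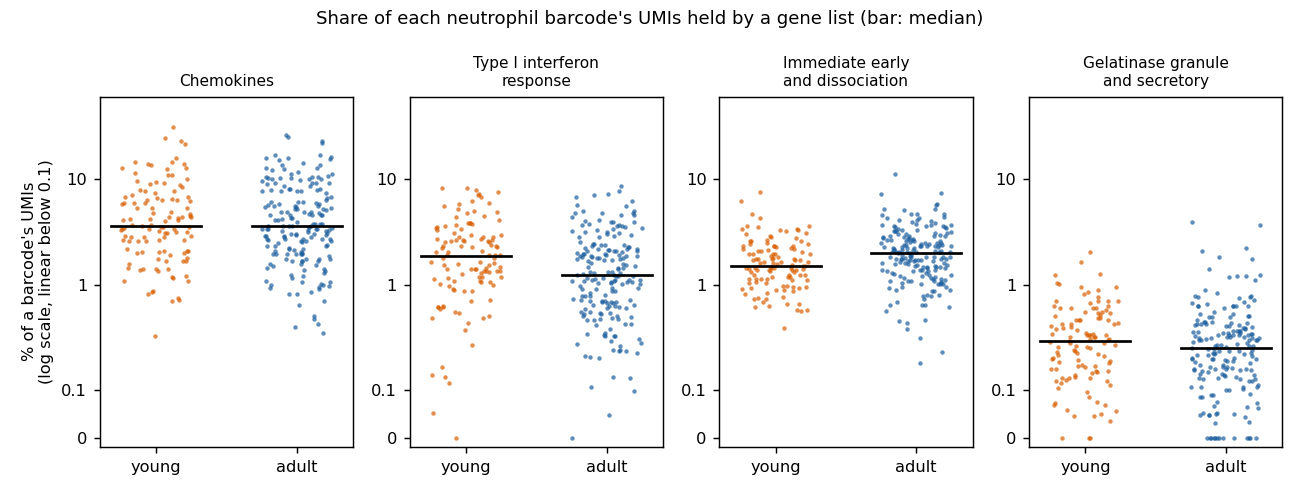
Share of each neutrophil barcode's UMIs held by 4 gene lists (vertical, log scale above 0.1%), young (orange, 116 points) and adult (blue, 189 points), with the median as a bar. Every panel shows wide overlap of the ages; the medians for type I interferon genes are 1.85% and 1.23%, and for immediate early genes 1.52% and 1.98%.

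Neutrophils held a smaller share of the young library. They were 1.75% (exact binomial interval 1.45 to 2.10) of 6624 kept young barcodes with under 5 mCherry UMIs and 3.59% (3.10 to 4.12) of 5271 adult ones, a ratio of 0.488 (0.389 to 0.614). Moving the S100 limit to 0.5% or 3% gave 0.509 and 0.447. The sort for mCherry can set these shares, and a lower S100 level in the young library would itself move barcodes out of the class.

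Between the ages, 1927 genes were at 50 CPM or more in the neutrophils of at least 1 library. Of these, 134 (6.95%) were at least 2-fold higher in young and 87 (4.51%) at least 2-fold lower, and the median log2 ratio of all 1927, with 5 CPM added to each level, was 0.11. Requiring the same call without the barcode with most UMIs of the gene in each library, and at least 5 carrying barcodes in the higher library, left 119 and 81.

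Interferon-induced genes stood out on the young side. The lists were drawn with earlier results of these data known, so their shares past 2-fold, here and below, describe and do not test. Of 18 genes of the type I interferon response, 6 were at least 2-fold higher in young and none 2-fold lower. The 6 are a larger share than the 6.95% of all genes. A ratio above 1 was seen in 16 of 18, beside 1117 of all 1927 genes. The median log2 ratio of the list was 0.75 against 0.11 over all genes. Ifit3, an antiviral tetratricopeptide protein, had 888 CPM in the young and 176 CPM in the adult library, a ratio of 5.04 (3.84 to 6.70), with UMIs in 55 of 116 young and 34 of 189 adult barcodes. Ifit2 and Ifit1 had 242 and 40.8 CPM and 979 and 337 CPM, ratios of 5.92 (3.38 to 11) and 2.91 (2.35 to 3.61). The level needed for the comparison, 50 CPM, was reached by Ifit2 and Cmpk2 in the young library alone. Bst2 (tetherin), Slfn5 (a schlafen protein) and Cmpk2 (a mitochondrial nucleotide kinase) had ratios of 2.82 (2.0 to 4.01), 2.37 (1.67 to 3.38) and 2.27 (1.13 to 4.68). The most abundant members differed less: Isg15, a ubiquitin-like modifier, had 6072 and 3937 CPM, a ratio of 1.54 (1.44 to 1.66), and Rsad2 (viperin) 1.69 (1.48 to 1.94). Ifitm1, an antiviral membrane protein, went the other way with 2006 and 3457 CPM, a ratio of 0.580 (0.524 to 0.642).

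The list was also higher in the other young barcodes. There the median log2 ratio of the list was 0.56 and the ratios were 1.89 for Ifit3, 1.6 for Ifit2, 1.63 for Ifit1 and 1.36 for Bst2, all below those in neutrophils. For Irf7, Rsad2, Rtp4, Oasl1, Ifitm3, Slfn4 and Ifitm1 the ratio in the others was the larger one, and the difference between the classes was not tested. Levels in the others were 109.5 and 57.9 CPM for Ifit3 and 857 and 631 CPM for Bst2, and neutrophil levels were 149.7 and 28.0 times the free-RNA level for Ifit3 but only 8.23 and 1.97 times for Bst2. The summed level of the 6 monocyte markers was 2327 and 1421 CPM. Of the 5 that reached the level, Ly6c2 (521 and 255 CPM) and Ms4a4c (151 and 48.5 CPM) were at least 2-fold higher in young and Ccr2 (18.9 and 58.7 CPM) at least 2-fold lower, and Ly6c2 was past 2-fold in only 2 of 12 alternatives. Without the 8 young and 7 adult barcodes with more than 0.5% of their UMIs in the monocyte markers, the ratios were 4.17 for Ifit3, 4.40 for Ifit2 and 2.64 for Ifit1, while Cmpk2, at 1.93, was no longer past 2-fold, so that 5 of 18 were. With no Csf1r UMI allowed, 5 of 18 were past 2-fold on the young side and Ifitm1 on the adult side (0.472), with Slfn5 at 1.94. Over all 12 alternatives run on single genes, Ifit3 lay between 3.79 and 7.84 and Ifit1 between 2.36 and 4.42.

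Promoters of interferon-induced genes are known to carry the interferon-stimulated response element, to which the interferon-activated factor complex binds, with a GAAANNGAAA core. In the RefSeq promoters (GRCm38.p6, the same build as mm10), this motif was looked for on both strands of the 250 bases before each gene's start. It was present in 2.98% of 32851 promoters. Among the list genes, it was present in 4 of the 6 genes past 2-fold (Ifit1, Ifit3, Slfn5 and Bst2, not Ifit2 or Cmpk2), and in 7 of the 16 list members with an entry. The 4 promoters are shown because they carry the motif and belong to list genes past 2-fold. They are written 5′ to 3′ along the gene, with motif matches in capitals, which read TTTCNNTTTC where the match is on the other strand. Ifit1 is at chr19:34640639-34640888 on the plus strand, Ifit3 at chr19:34583279-34583528 on the plus strand, Slfn5 at chr11:82951852-82952101 on the plus strand and Bst2 at chr8:71537473-71537722 on the minus strand.
Ifit1: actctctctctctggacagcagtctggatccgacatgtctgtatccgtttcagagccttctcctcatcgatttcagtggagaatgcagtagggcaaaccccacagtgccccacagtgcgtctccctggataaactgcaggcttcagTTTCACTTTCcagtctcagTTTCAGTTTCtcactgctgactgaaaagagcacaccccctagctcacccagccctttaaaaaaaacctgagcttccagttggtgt
Ifit3: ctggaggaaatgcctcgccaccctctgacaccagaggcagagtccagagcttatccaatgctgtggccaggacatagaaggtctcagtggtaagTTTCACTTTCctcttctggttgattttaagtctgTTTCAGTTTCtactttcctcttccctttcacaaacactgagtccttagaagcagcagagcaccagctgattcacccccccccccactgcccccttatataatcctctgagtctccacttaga
Slfn5: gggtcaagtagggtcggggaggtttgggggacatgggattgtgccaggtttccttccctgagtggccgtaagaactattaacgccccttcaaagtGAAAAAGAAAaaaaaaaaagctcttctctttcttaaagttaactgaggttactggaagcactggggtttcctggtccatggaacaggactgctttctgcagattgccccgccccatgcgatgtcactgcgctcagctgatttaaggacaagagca
Bst2: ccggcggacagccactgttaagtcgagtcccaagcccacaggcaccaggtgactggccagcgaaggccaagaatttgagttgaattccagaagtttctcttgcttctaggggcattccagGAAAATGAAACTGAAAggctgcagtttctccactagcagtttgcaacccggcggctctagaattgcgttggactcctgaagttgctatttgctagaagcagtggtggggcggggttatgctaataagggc
Ifit1 and Ifit3 each hold 2 matches on the minus strand, beginning 104 and 85 bases before the start in Ifit1 and 156 and 122 in Ifit3. The 2 matches in Bst2 overlap each other, and the match in Slfn5 runs into a stretch of A.

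Of 10 genes of the interferon gamma response that reached the level, 2 were at least 2-fold higher in young, against 6.95% of all genes, and none 2-fold lower, with a median log2 ratio of 0.71 (0.29 in the others). Igtp, an immunity-related GTPase, had 786 and 291 CPM, a ratio of 2.70 (2.14 to 3.43). Gbp4, a guanylate-binding protein, had a ratio of 2.81 (1.78 to 4.54). Both stayed past 2-fold in all 12 alternatives. Cd274, Irf1 and Socs1 were within 1.3-fold of 1. Among the 10 largest ratios of all genes, Ifi208, Ifi206 and Trim30c, interferon-inducible or TRIM family genes outside the lists, had ratios of 7.40 (2.48 to 29.8), 5.92 (1.91 to 24.3) and 5.55 (1.77 to 23.0) on 15 to 20 young UMIs each. With 4 adult UMIs each, they reached 50 CPM in the young library alone. They were picked by their ratios and add no support to the lists.

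**Figure D5:**
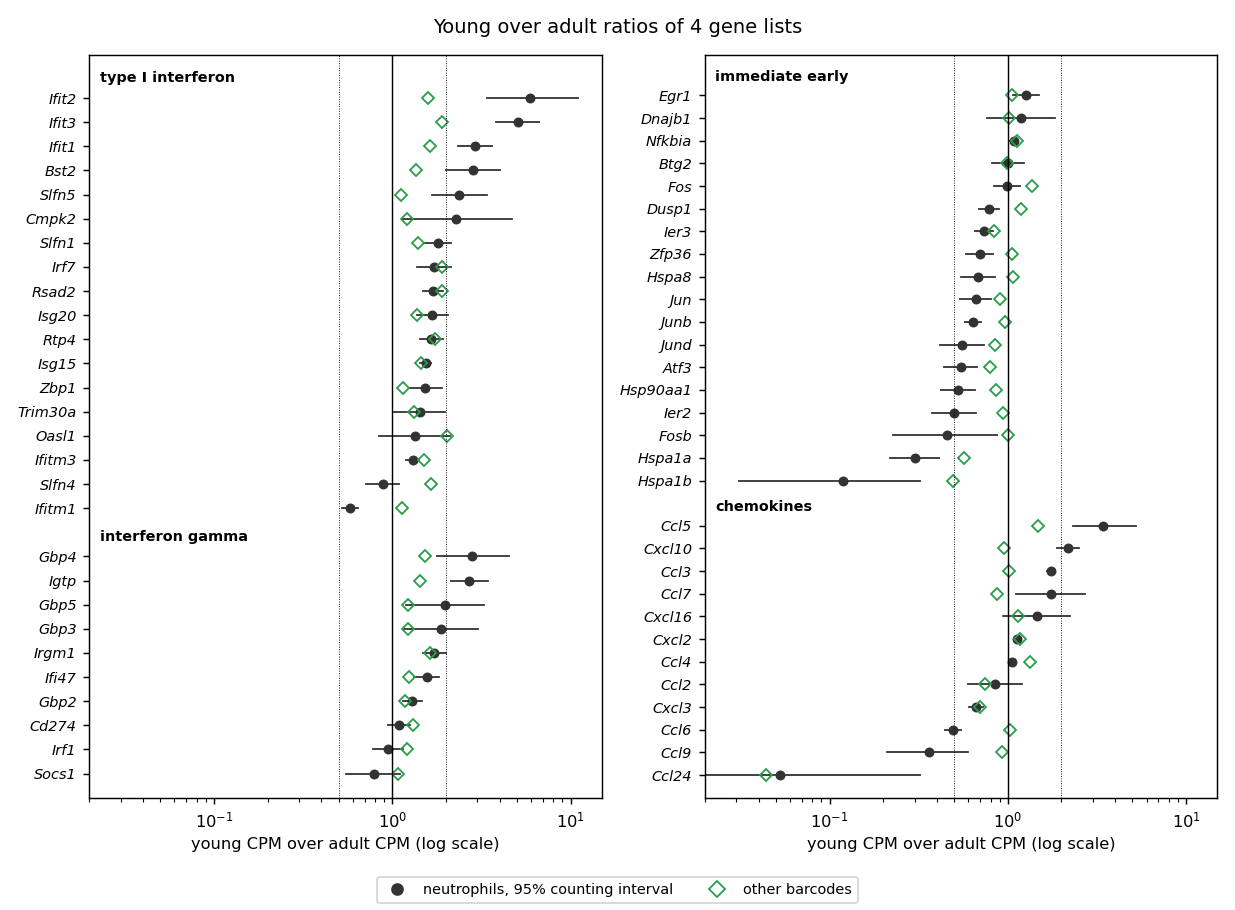
Young over adult ratio (horizontal, log scale) of each gene that reached 50 CPM in 4 lists, in neutrophils (black, with 95% conditional binomial intervals) and in the others (open green diamonds, no interval drawn); dotted lines mark 2-fold. Ifit2, Ifit3, Ifit1, Bst2, Slfn5 and Cmpk2 lie right of the diamonds and past 2-fold, most immediate early genes lie left of 1, and Ccl24 lies far left in both classes, with an interval that runs past the left edge.

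Of 18 immediate early and stress genes, 3 were at least 2-fold lower in young, against 4.51% of all genes, and none 2-fold higher. A ratio below 1 was seen in 15, while 1117 of all 1927 genes had one above 1. The median log2 ratio of the list was -0.57 against -0.03 in the others. Junb, an AP-1 subunit, had 1995 CPM in the young and 3128 CPM in the adult library, a ratio of 0.638 (0.575 to 0.707), and Ier2 261 and 520.5 CPM, a ratio of 0.501 (0.376 to 0.661). Fosb had a ratio of 0.458 (0.226 to 0.870). The heat shock genes Hspa1a and Hspa1b had 193 and 638 CPM and 15.1 and 128 CPM, but Hspa1a came from only 8 of 116 young and 31 of 189 adult barcodes; they are near-identical copies and each value is uncertain. Hspa1a was also lower in the other young barcodes (ratio 0.567). The level needed for the comparison, 50 CPM, was reached by Fosb and Hspa1b in the adult library alone. Fos, Btg2 and Nfkbia were near 1, and Egr1 was higher in young, 1.27 (1.07 to 1.5). These genes also respond to tissue dissociation, and the handling of a pool cannot be told apart from its age here.

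Klf2, a quiescence-linked factor, had 412 CPM in the young and 1311 CPM in the adult library, a ratio of 0.314 (0.253 to 0.387), while in the others it was 0.867. It stayed at least 2-fold lower in all 12 alternatives, between 0.295 and 0.357. Wfdc17 had 1013 and 3511 CPM, a ratio of 0.288 (0.252 to 0.329); it lies outside the rule for named genes and was chosen after its values were seen. The markers G0s2 and Retnlg were lower in young, with ratios of 0.387 (0.350 to 0.427) and 0.466 (0.390 to 0.554). In the others, where their levels were under 15 CPM, the ratios were 0.349 and 0.553, also below 1. Retnlg missed the 2-fold limit in 4 of 12 alternatives. Hdc was within counting error of 1, at 0.962 (0.847 to 1.09), and Lcn2 and Asprv1 lay on opposite sides of 1, 0.747 (0.588 to 0.945) and 1.61 (1.28 to 2.03). S100a8 and S100a9 had 30302 and 40829 CPM and 30121 and 42587 CPM, which the rule partly fixes.

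Granule and receptor genes differed little as groups. The 11 gelatinase and secretory genes had a median log2 ratio of 0.24, with only Retnlg past 2-fold. The 11 receptors had 0.12, with only Fpr1 past 2-fold: 605 CPM in the young and 268 CPM in the adult library, a ratio of 2.26 (1.75 to 2.91), beside 3.10 in the others. Fpr2 had 1.79 (1.45 to 2.22), Cxcr2 1.41 (1.08 to 1.83) and Csf3r 0.795 (0.606 to 1.04). The 12 glycolysis genes had a median of -0.28 with none past 2-fold, led by Gapdh at 0.742 (0.676 to 0.815). Over all genes, 6.95% were at least 2-fold higher in young and 4.51% at least 2-fold lower. In lists this short, the counts past 2-fold are close to those shares. Among the stefin A genes, Gm5483 and Stfa2l1 were similar, 1.21 (1.12 to 1.30) and 1.14 (0.981 to 1.32). Stfa2 had 17.8 (4.41 to 155) on 24 UMIs in 6 young and 2 in 2 adult barcodes, and BC100530 4.69 (2.40 to 9.86), where 1 young barcode held 29 of 38 UMIs.

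Chemokines and cytokines differed gene by gene. Of 12 chemokines that reached the level, 2 were above a 2-fold ratio of young to adult (6.95% of all genes) and 3 lay below its inverse (4.51%). Ccl6 had 1870.3 and 3796 CPM, a ratio of 0.493 (0.444 to 0.546), and Ccl9 0.361 (0.210 to 0.595), beside values near 1 in the others (1.03 and 0.934). Ccl9 was not past 2-fold at 1000 UMIs per barcode (0.721) or with no Csf1r UMI allowed (0.527). Cxcl10 had 2.18 (1.89 to 2.52) and Ccl5 3.44 (2.32 to 5.21). Without the barcodes rich in monocyte markers those 2 ratios were 1.44 and 1.85, and without the deepest barcodes 1.89 and 1.70, under the 2-fold limit. Ccl24, an eosinophil chemokine, was lower in young, 3.78 and 71.4 CPM, but the others differed as much, 45.7 and 1038 CPM. Its adult neutrophil level was within its free-RNA level, and its young level rested on 1 UMI. Ccl3 had a ratio of 1.74 (1.65 to 1.84) and Il1rn 1.64 (1.53 to 1.75), beside 1.02 and 1.04 in the others. Inhba had 895 and 388 CPM, a ratio of 2.31 (1.88 to 2.85), and 0.898 in the others, and stayed past 2-fold in 8 of 12 alternatives. Cxcl2 and Ccl4 were close to 1, at 1.12 (1.09 to 1.15) and 1.06 (1.01 to 1.11).

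The largest ratios rested on few barcodes. Gm15056 was at least 35-fold higher in young, but all 71 of its UMIs came from 1 barcode, and Cx3cr1, a receptor of patrolling monocytes, was at least 16.4-fold higher in adult on 73 UMIs of 1 barcode. Ramp3 (13 of 16 UMIs), H1f0 (14 of 20) and Adh5 (27 of 32) likewise leaned on 1 barcode each, and the acute phase gene Saa3 had 91 adult UMIs in 2 barcodes. Ngp had 32 young UMIs in 4 barcodes and 3 adult ones in 3. Differences spread over more barcodes were Hist1h1c, a linker histone with 68.0 and 492 CPM in 10 and 56 barcodes, a ratio of 0.138 (0.0802 to 0.224), and Tgm1, Carnmt1 and Kdm5b, each with 1 or 2 young and 20 to 23 adult UMIs in 15 to 18 adult barcodes. Atxn7l3b had 18 and 5 UMIs in 14 and 5 barcodes. Mmp12, a macrophage elastase, had 4 and 38 UMIs, 19 of them in 1 adult barcode, and levels of 116 and 179 CPM in the others.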

How the data were processed

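The authors deposited, for each library, a matrix of raw UMI counts over 31054 features. Cell Ranger 3.0.2 and mm10 stand in the submitters' processing notes and a V2 3' kit of 10x Genomics in the labels' protocols. The annotation, the use of strand and the barcode filter were not given in the sources used here. Files were joined to ages by sample title. Counts were summed per library and class (Python 3.11.15, numpy 2.4.6, scipy 1.17.1). Genes at 50 CPM or more were compared, with haemoglobin, immunoglobulin, mitochondrial and ribosomal protein genes left out between the ages. Calls are by size (2-fold). On simulated Poisson counts 3.07% of unchanged genes were called. The simulation held no spread between barcodes or libraries, so it covers counting error alone. Intervals are 95%: exact Poisson, conditional binomial (Clopper-Pearson) or exact binomial. A count of 0 was read as up to 3. Named genes are list members, the 15 leading class genes and the 10 largest age ratios in each direction. Other genes are said to be chosen later. Members and lists were chosen with earlier results of these data known. No doublet caller was run. Positions are from GENCODE M21, which holds 99.6% of the identifiers. Alternatives changed the S100, Csf1r and mitochondrial limits, depth, filter, scaling, free RNA and barcodes used. Some genes of the lists are not reported here and were left out of the list counts.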

Additional observations from a re-analysis of the deposited data

Results flagged for a closer look

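Spp1, which encodes osteopontin, differed between the ages in opposite directions in the 2 classes. It was chosen because its young level was at least 1.5-fold above the adult level in neutrophils and at least 1.5-fold below it in the others, the only such gene among 1494 genes at 50 CPM or more in both classes. In neutrophils it had 4504 CPM in the young and 2814 CPM in the adult library, a ratio of 1.6 (1.47 to 1.74), and in the others 410.0 and 962 CPM, a ratio of 0.426. With 1 library per age the difference between the classes was not tested. Over 12 alternatives the neutrophil ratio lay between 1.17 (S100 limit of 3%) and 2.07 (without the deepest barcodes).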

How the results depend on the processing

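The share ratio of young to adult neutrophils lay between 0.447 and 0.509 under 6 alternatives, and the number of genes higher in neutrophils between 267 and 501 around 369 under 12. The number of genes 2-fold apart between the ages, 221, was less stable: it was 365 with an S100 limit of 3%, 341 with free RNA subtracted, 451 at 1000 UMIs per barcode, 823 with a 20 CPM filter and 90 with a 100 CPM filter. Free RNA in adult neutrophils was 7.10% with no Csf1r UMI allowed and 6.97% without the deepest barcodes, and in young ones 8.93% by Apoe, Ms4a7 and Trem2, a probe chosen after seeing the data. For 204 named genes compared between the ages, 2448 alternative values were set against the main ones. Of these, 2250 counted as the same, 197 as moved and 1 as reversed. The reversed value was that of Ccl24, a log2 value of 0.35 with free RNA subtracted. Ratios near 1 could also change side: the median log2 ratio of the 10 survival genes went from -0.06 to 0.10 with an S100 limit of 3%. No adult Ccl24 was left then, so the ratio has no value and 0.35 comes from the added 5 CPM. The probe planned in place of the C1q genes is not reported. For the others the cause was not tested. The alternatives without the barcode with most UMIs of a gene (200 genes apart) and without barcodes rich in monocyte markers (227) were chosen after seeing the data. No paired analysis was possible because each age is 1 library, so no library could be left out either. Depth limits the neutrophil class: a gene at 50 CPM rests on 13 young or 20 adult UMIs.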

Other observations

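Several genes outside the lists, chosen after their values were seen, were also high in neutrophil barcodes. Hcar2, a receptor for hydroxycarboxylic acids such as niacin, had 2822 CPM in the young and 2824 CPM in the adult library, against 135 and 138 CPM in the others, and did not differ between the ages (0.999 (0.910 to 1.10)). Cd24a, a surface glycoprotein used with Ly6g to stage neutrophils, had 1678 and 2479.9 CPM against 102 and 113 CPM, a ratio of 0.676 (0.603 to 0.758). Ly6g itself, the standard surface marker of mouse neutrophils, gave only 8 and 13 UMIs, in 7 of 116 young and 4 of 189 adult barcodes, while the others had 0.136 and 0.115 CPM. AC110211.1, annotated as antisense at chr15:76266461-76269839 (mm10), had 1319 and 674 CPM against 55.0 and 21.8 CPM.

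Further genes were higher in the young class. Trim30b, a TRIM family gene, had 378 and 153 CPM, a ratio of 2.47 (1.77 to 3.46), in 52 of 116 young and 47 of 189 adult barcodes, and 1.31 in the others. Slc6a13, a transporter of GABA and taurine, had 189 and 63.8 CPM, a ratio of 2.96 (1.80 to 5.0), in 26 of 116 young and 15 of 189 adult barcodes, with levels of 0.829 and 1.69 CPM in the others. Both stayed past 2-fold in all 12 alternatives run on single genes.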
